A study of Rattus norvegicus with 6 samples.

Results

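The collagen chains are the genes named Col, type number, a, chain number, and 26 of the 17089 genes measured in these cultures carry such a symbol. The rule that picks them reads the symbol alone; the family itself was taken up with earlier results of these data known. RNA was sequenced from neonatal rat ventricular myocytes, primary cultures of heart ventricle from Sprague Dawley pups at postnatal day 1 to 3, grown on fibronectin. The medium, based on M199, held 10% serum over the first 2 days and 2% serum once day 3 began. An adenovirus was added to every culture on the day the cells were isolated, and RNA was taken 4 days after this gene transfer. In 3 cultures (GFP) the virus was Ad-GFP, and in 3 (Tbx18) it was Ad-Tbx18-IRES-GFP, which carries the T-box transcription factor Tbx18 ahead of GFP, so both viruses carry GFP and both groups have been through viral transduction. The columns of all 6 libraries are also marked unpace and Control, words that no label explains. The study asked how Tbx18 changes the transcriptome of ventricular cells on the way to pacemaker-like cells.

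Collagens are secreted proteins in which 3 chains wind into a triple helix built on a glycine in each repeat. Fibrillar collagens form the rope-like fibrils that carry tension between muscle bundles, type IV collagens form the sheet of the basement membrane that surrounds each myocyte, type VI collagen forms beaded filaments next to cells, and the fibril-associated collagens with interrupted helices (FACIT) sit on the surface of fibrils. In the heart most fibrillar collagen is made by fibroblasts, while basement membrane collagen comes from several cell types, among them endothelial cells and fibroblasts. Enzymes in the secretory pathway hydroxylate, fold and trim the chains, lysyl oxidases cross-link them outside the cell, and integrins and discoidin domain receptors bind them.

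Values are the authors' normalized counts: gene reads divided by 1 size factor per library, given in the order of replicates 1, 2 and 3, or as mean ± SD (n = 3). Libraries held 17074483 to 19800300 gene reads. Tbx18 was read at 268 to 312 in GFP and at 5937 to 6236 in Tbx18, matching the labels. No label ties the replicates to separate cell isolations, so a p-value speaks for the spread among these 6 libraries alone, and that spread may be technical. Heart muscle markers were present in both groups, and 9 of 10 matched a row. Of the 9 tested, 8 were called lower in Tbx18 (limma adjusted p under 0.05), against 23.5% of all 11230 genes tested. The summed level of the 9 was 1346660 to 1459670 in GFP and 577101 to 596139 in Tbx18. In bulk RNA, fewer cells of a type and less RNA per cell cannot be told apart.

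Most collagen genes were higher in Tbx18. Of the 26, 23 had a mean of at least 10 normalized counts and were tested; 16 rose, 2 fell and the other 5 were not called (limma adjusted p under 0.05). Over all 11230 genes tested, 46.0% were called, 22.5% higher and 23.5% lower. For 19 of the 23 collagen genes the GFP and Tbx18 values did not overlap, against 57.2% of all genes tested. The median log2 fold change of the 23 was 1.07, beside 0.005 for all genes. Col2a1 and Col11a2 passed the minimum mean only through their Tbx18 libraries, so the counts and the median are descriptions; without this pair 14 of 21 were called higher and 2 lower. By class, 9 of 10 fibrillar genes rose, 0 of 3 basement membrane genes rose and 2 fell, the 1 tested beaded filament gene rose, 3 of 3 tested FACIT genes rose, and 3 of 6 tested others rose. Col2a1 and Col11a2 are among the 9 fibrillar genes and among the 19 genes without overlap.

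**Figure D1:**
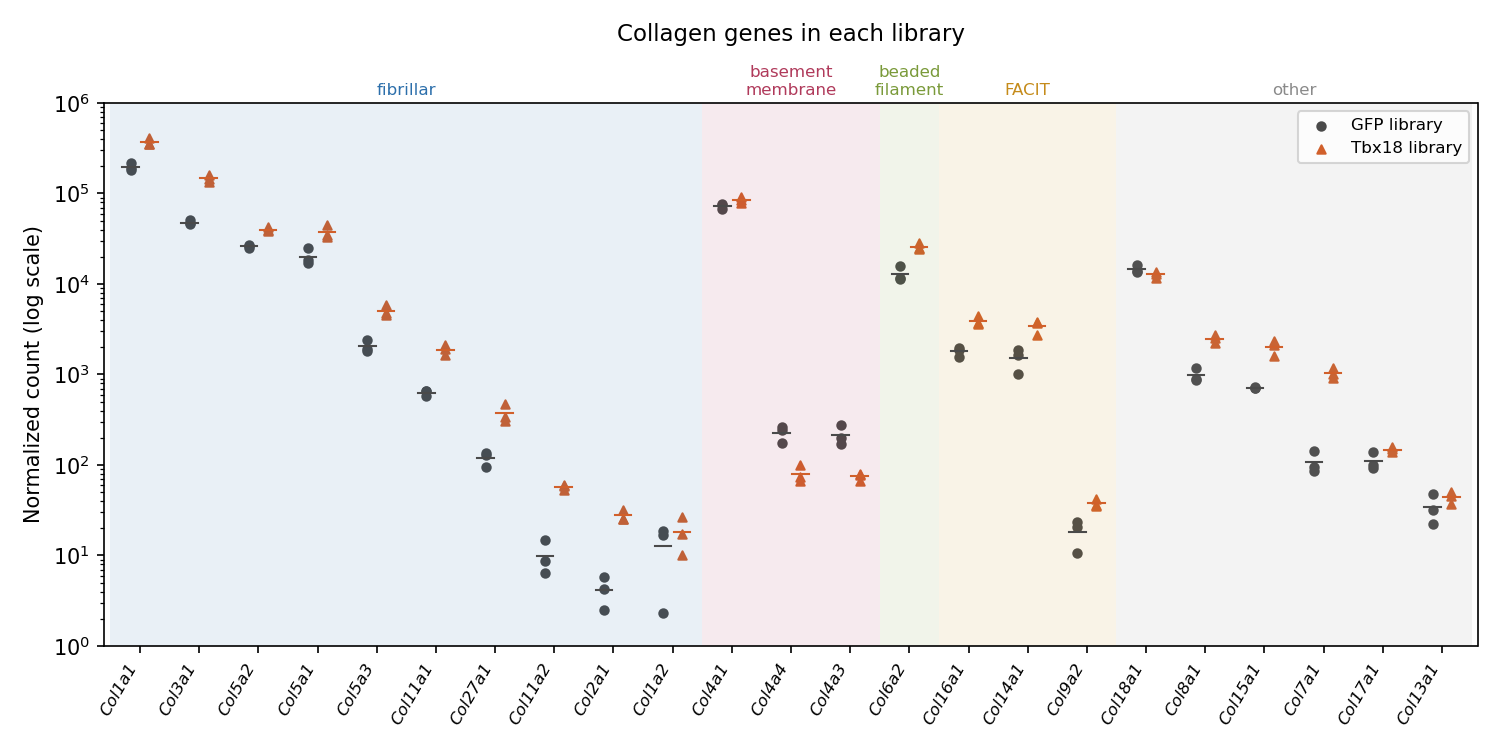
Normalized count of each of the 23 tested collagen genes (log scale) in the 3 GFP libraries (circles) and the 3 Tbx18 libraries (triangles), with a short line at each group mean, ordered by class. Triangles lie above circles for most fibrillar and FACIT genes, below them for Col4a3 and Col4a4, and among them for Col18a1, Col1a2, Col13a1 and Col17a1.

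The 26 genes together took 1.92% ± 0.21 of all normalized counts in GFP and 4.26% ± 0.39 in Tbx18. Their sum was 433682, 373825 and 393686 in the GFP libraries and 709016, 694428 and 816445 in the Tbx18 libraries. Every Tbx18 library was above every GFP library. The sum rose 1.85-fold (exact two-sided permutation test, p = 0.10, the smallest that 3 against 3 libraries can give). Without Col1a1, Col1a2 and Col3a1 it differed 1.43-fold, from 154502 ± 11821 to 221638 ± 19717, again with no overlap. Scaled to equal recovered reads, the sum differed 2.21-fold.

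Most fibroblast markers were higher in Tbx18, as was the collagen total. Of 15 fibroblast markers that are not collagens, 14 were tested, 11 rose and 0 fell, with a median log2 fold change of 0.70, and Mfap4 was at 0 in every library. Their summed level was 119157 to 151267 in GFP and 183616 to 209856 in Tbx18, a 1.46-fold difference. Fn1 and Vim, fibronectin and vimentin, made up 85.5% of that sum in GFP and 81.6% in Tbx18. The sum of the other 13 was 17764 to 20931 in GFP and 34141 to 37401 in Tbx18, a 1.85-fold difference. This split of the list was not planned in advance, and its fold is no separate evidence on the collagen total. The largest part of that difference was Postn, periostin, at 7488 ± 1492 in GFP and 18878 ± 1375 in Tbx18. Of 9 tested smooth muscle and pericyte markers, 6 rose and 1 fell, with sums of 79978 to 117924 and 123644 to 135859. Of 8 tested epicardial and mesothelial markers, 7 rose, with sums of 823 to 1068 and 4064 to 4838. Krt8 held most of the Tbx18 sum (2662 ± 353), and Tcf21 is also among the fibroblast markers. Of 9 tested endothelial markers, 5 rose and 1 fell, with sums of 1628 to 2650 and 2382 to 2507. Of 9 macrophage and leukocyte markers, 3 rose, with sums of 1257 to 2321 and 1632 to 2252. That is 33.3% called, below the 46.0% of all genes tested. Of 4 tested Schwann and neural markers, 3 rose, with sums of 658 to 708 and 967 to 1096. Beside these counts, 22.5% of all genes tested were called higher and 23.5% lower. The part of these cell types in the collagen results was not tested.

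The composition of the collagen RNA shifted towards fibrillar chains, and Col3a1 was the gene whose share rose most. Shares are percentages of the summed counts of the 26 rows. Long transcripts give more reads and no transcript lengths were used, so a share can be followed between groups but does not rank classes by molecules. Fibrillar genes took 74.1%, 73.8% and 72.9% of the collagen total in GFP and 80.9%, 81.8% and 81.9% in Tbx18. Of these, Col3a1 took 12.0% ± 0.99 in GFP and 19.9% ± 0.41 in Tbx18. Col1a1 took 49.4% ± 1.03 and 50.2% ± 0.87, and Col5a2 took 6.51% ± 0.45 and 5.42% ± 0.24. Basement membrane genes took 17.8%, 17.9% and 18.8% in GFP and 11.9%, 11.4% and 11.2% in Tbx18. The remaining types, mostly Col18a1, went from 4.15% ± 0.52 to 2.50% ± 0.12. The groups did not overlap for these 3 classes, which differed by 7.90, -6.70 and -1.65 percentage points (exact permutation p = 0.10 each, adjusted p = 0.167 over 5 shares). The shift did not rest on Col3a1 alone. When Col1a1, Col1a2 and Col3a1 were left out of the total, these differences were 6.67, -8.78 and -2.41 points. A falling share was not a falling sum. The basement membrane sum was 72829.5 ± 5228 in GFP and 84980.5 ± 6058 in Tbx18, 1.17-fold higher. The sum of the remaining types was 16551 ± 1394 and 18516 ± 1738, 1.12-fold higher, with overlapping groups. The beaded filament share was 3.21% ± 0.34 and 3.49% ± 0.02 (exact permutation p = 0.40, adjusted p = 0.40), with overlapping groups; the difference of 0.28 points ran from 0.17 (GFP replicate 3 left out) to 0.48 (GFP replicate 1 left out), and it was 3.34, with no overlap, when Col1a1, Col1a2 and Col3a1 were left out of the total. The FACIT share was 0.83% ± 0.15 and 1.00% ± 0.08, also overlapping (exact permutation p = 0.20, adjusted p = 0.25); the difference of 0.17 points was 0.087 without GFP replicate 3 and 1.19, with no overlap, without those 3 genes. A share does not depend on the size factor of its library. It does depend on which chains have a row: Col4a2, Col6a1, Col6a3 and Col12a1, whose products belong to these assemblies, are among 19 of 45 listed chain symbols that were not analysed here. The row of Col1a2 held only 2 to 30 reads per library, so type I collagen entered these shares almost wholly through Col1a1.

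**Figure D2:**
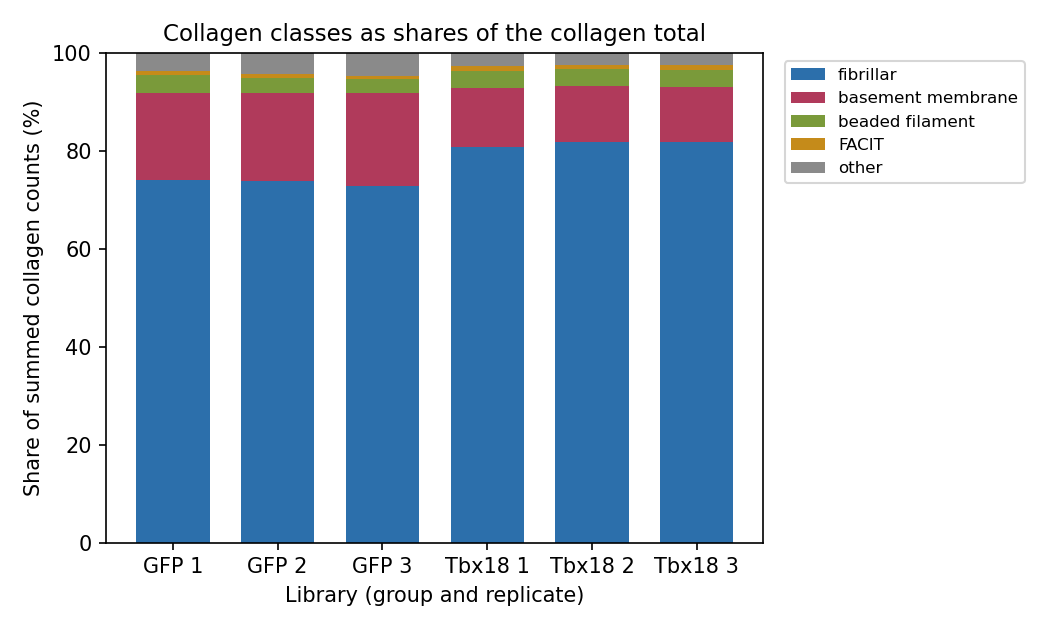
Share of the summed normalized counts of the 26 collagen genes (percent, bars stacked to 100) that each class took in each of the 6 libraries. The fibrillar share is 72.9% to 74.1% in GFP and 80.9% to 81.9% in Tbx18, and the basement membrane share narrows from at least 17.8% to at most 11.9%.

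Among fibrillar genes, the main chains of the cardiac interstitium rose by unequal amounts. Col1a1, the alpha1 chain of type I collagen, the stiff main component of heart fibrils, was at 219259, 183972 and 191076 in GFP and at 348859, 353564 and 411072 in Tbx18. It rose 1.87-fold (log2 fold change 0.91 with SE 0.16, limma adjusted p = 0.00136). Col3a1, the single chain of type III collagen, which forms thinner and more compliant fibrils together with type I, was at 47135, 45896 and 50308 in GFP and at 144079, 135542 and 161807 in Tbx18. Its rise was 3.08-fold (log2 fold change 1.62 with SE 0.12, limma adjusted p = 1.36e-05). For both genes each Tbx18 library lay well above the highest GFP library.

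The ratio of Col3a1 to Col1a1 counts within a library therefore moved. It was 0.215, 0.249 and 0.263 in GFP and 0.413, 0.383 and 0.394 in Tbx18, with no overlap, a 1.64-fold shift towards Col3a1 (log2 difference 0.71, exact permutation p = 0.10, adjusted p = 0.233 over the 7 ratios computed). Of all collagen counts, Col3a1 took 12.0% ± 0.99 in GFP and 19.9% ± 0.41 in Tbx18, while Col1a1 took 49.4% ± 1.03 and 50.2% ± 0.87.

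Col1a2, the partner chain of Col1a1 in type I collagen, had only 2 to 16 reads per GFP library and 11 to 30 per Tbx18 library, at 17.0, 18.5 and 2.30 normalized counts in GFP and 10.1, 17.4 and 26.3 in Tbx18. The groups overlapped and it was not called (log2 fold change 0.76 with SE 0.67, limma adjusted p = 0.381). The Col1a1 row of the same libraries held 148970 to 468324 reads. Whether the Col1a2 row covers the whole transcript was not tested, and type I collagen is described here by Col1a1.

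Type V collagen, a minor fibrillar type buried inside type I fibrils where it sets their diameter, rose through all its 3 chains. Col5a1 was at 24718, 17218 and 18293 in GFP and at 34977, 32881 and 44722 in Tbx18, a 1.87-fold rise (log2 fold change 0.91, limma adjusted p = 0.00143). Col5a2 was at 27040, 26255 and 24676 in GFP and at 38417, 39285 and 42292 in Tbx18, a 1.54-fold rise (0.62, adjusted p = 0.000646). Col5a3 went from 2425, 1830 and 1931 to 4809, 4507 and 5881, a 2.46-fold rise (1.30, adjusted p = 6.37e-05).

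In none of the 3 did a Tbx18 library reach down to the GFP range. The ratio of Col5a1 to Col1a1 was 0.0936 to 0.113 in GFP and 0.0930 to 0.109 in Tbx18, with overlapping groups (log2 difference 0.002, -0.06 to 0.09 when any 1 library was left out, exact permutation p = 1.0). The ratio of Col5a2 to Col5a1 was 1.09 to 1.53 in GFP and 0.946 to 1.20 in Tbx18, also overlapping (log2 difference -0.29, exact permutation p = 0.30, adjusted p = 0.525).

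The fibrillar genes best known from cartilage were higher, from low levels. Col11a1, the type XI chain that nucleates thin fibrils and can pair with type V chains, was at 651, 661 and 583 in GFP and at 1906, 1634 and 2103 in Tbx18, a 2.98-fold rise (log2 fold change 1.57, limma adjusted p = 1.08e-05). Col11a2, its partner chain, was at 6.38, 8.64 and 15.0 in GFP and at 52.5, 60.5 and 57.9 in Tbx18, 5.70-fold higher (2.47, SE 0.33). Col2a1, the chain of cartilage collagen II, was at 4.26, 2.47 and 5.75 in GFP and at 32.2, 25.6 and 25.5 in Tbx18, 6.67-fold higher (2.52, SE 0.38). Both passed the minimum mean only through Tbx18, so no p is given, and the GFP values of Col2a1 rest on 2 to 5 reads per library. Col27a1, a fibrillar chain of developing cartilage, was at 129, 135 and 94.4 in GFP and at 306, 335 and 473 in Tbx18, a 3.11-fold rise (1.62, adjusted p = 0.000182). For these 4 genes the groups did not overlap.

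**Figure D3:**
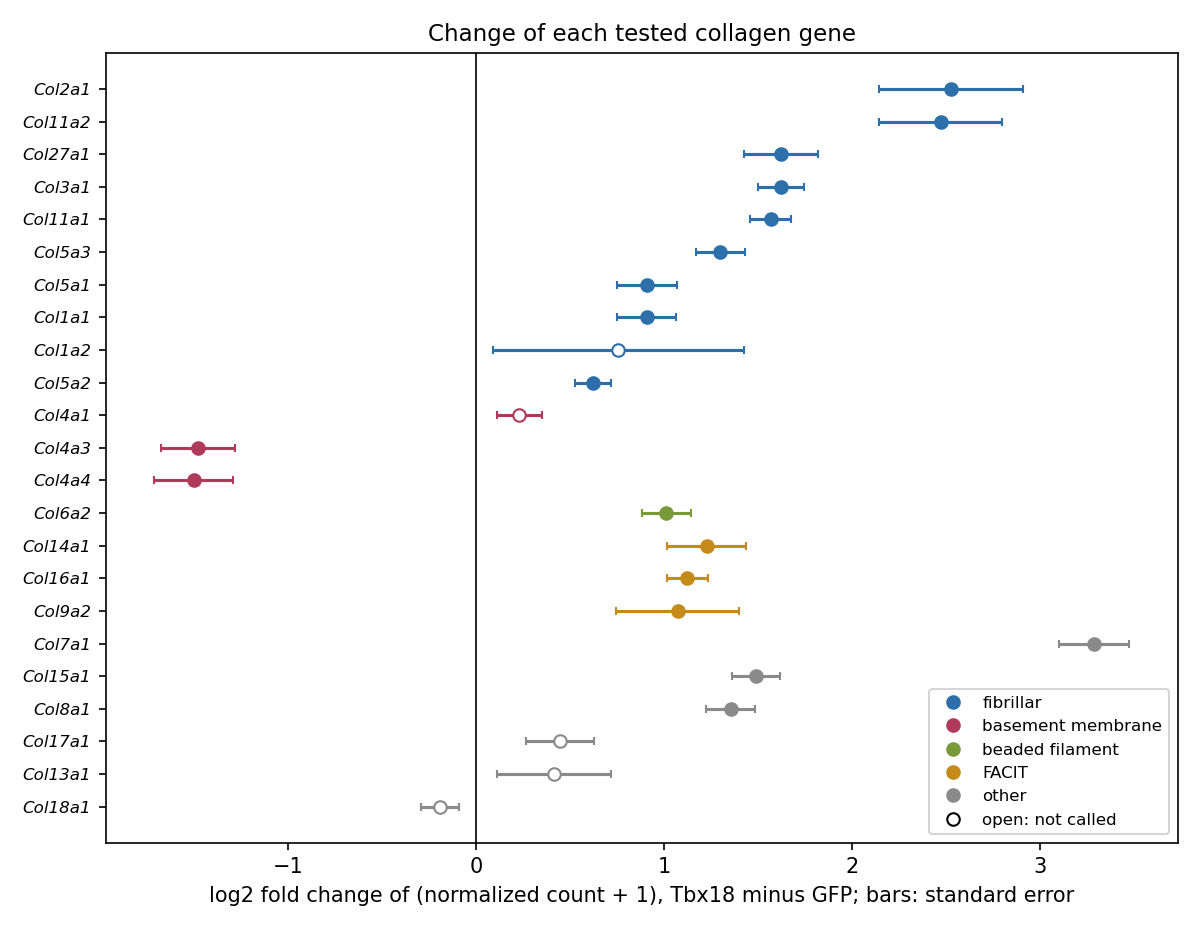
Log2 fold change (Tbx18 minus GFP, on log2 of the normalized count plus 1) of the 23 tested collagen genes, with the limma standard error as a bar, coloured by class; filled points are called. Values run from -1.50 for Col4a4 to 3.28 for Col7a1, and the 5 open points are Col1a2, Col4a1, Col13a1, Col17a1 and Col18a1. The filled points of Col2a1 and Col11a2 are descriptions, since both genes passed the minimum mean only through Tbx18.

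The type IV genes of the basement membrane split. Col4a1, which forms the common type IV trimer with Col4a2, was at 76723, 66721 and 73716 in GFP and at 84207, 79123 and 91147 in Tbx18. The Tbx18 libraries were all above the GFP libraries, but the difference of 1.17-fold did not pass the test (log2 fold change 0.23 with SE 0.12, limma adjusted p = 0.143); it did after quantile normalization (log2 fold change 0.83), with equal recovered reads (0.49) and with DESeq2 (adjusted p = 0.0484).

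Col4a3 and Col4a4, chains of the specialised type IV network of kidney, lung and inner ear basement membranes, fell together. Col4a3 was at 277, 169 and 198 in GFP and at 80.1, 66.6 and 78.1 in Tbx18, a 2.86-fold fall (log2 fold change -1.48 with SE 0.20, limma adjusted p = 0.000300). Col4a4 was at 264, 174 and 246 in GFP and at 73.6, 66.6 and 99.2 in Tbx18, also a 2.86-fold fall (-1.50, SE 0.21, adjusted p = 0.000378). All Tbx18 libraries were below all GFP libraries for both genes. They were the only 2 of the 23 tested collagen genes called lower, also under each of the 18 alternatives run.

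Within each library the pair stayed near equal counts: the ratio of Col4a4 to Col4a3 was 0.954, 1.03 and 1.24 in GFP and 0.919, 1.00 and 1.27 in Tbx18, with overlapping groups (log2 difference -0.02, exact permutation p = 0.80). The ratio of Col4a3 to Col4a1 was 3.30-fold lower in Tbx18, with no overlap (log2 difference -1.72, exact permutation p = 0.10, adjusted p = 0.233). These ratios, like that of Col7a1 to Col1a1 below, were chosen after the values were seen.

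Col4a3 and Col4a4 lie head to head, and the sequences before their starts are shown because the genes fell together. In RefSeq (GRCr8) their starts are 412 bases apart on opposite strands, and the windows of 250 bases before each start share 88 bases, in capitals below, each 5′ to 3′ on its gene's own strand. Col4a1 also lies head to head with another gene, Col4a2, with 76 bases between the starts. This stretch is shown beside them, with its 1 GGGCGG match (as CCGCCC on the other strand) in capitals. The Col4a3 window also holds GGGCGG, left in lower case because capitals there mark the shared stretch. The windows are chr9:91323740-91323989 (plus strand) for Col4a3, chr9:91323578-91323827 (minus strand) for Col4a4 and chr16:84885521-84885596 (plus strand) for Col4a1.
Col4a3: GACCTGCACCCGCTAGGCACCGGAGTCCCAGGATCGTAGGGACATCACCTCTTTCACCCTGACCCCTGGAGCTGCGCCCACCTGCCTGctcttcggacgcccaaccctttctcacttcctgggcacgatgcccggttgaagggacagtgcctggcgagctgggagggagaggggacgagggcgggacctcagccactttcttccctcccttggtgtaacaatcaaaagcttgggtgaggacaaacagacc
Col4a4: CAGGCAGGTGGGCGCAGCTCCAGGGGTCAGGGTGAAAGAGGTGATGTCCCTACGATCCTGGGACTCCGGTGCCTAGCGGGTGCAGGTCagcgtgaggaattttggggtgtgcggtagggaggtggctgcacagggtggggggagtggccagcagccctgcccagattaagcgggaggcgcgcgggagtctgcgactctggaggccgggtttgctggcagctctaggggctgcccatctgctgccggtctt
Col4a1: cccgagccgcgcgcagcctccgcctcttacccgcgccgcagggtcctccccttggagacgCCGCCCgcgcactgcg

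The other basement membrane and epithelial junction collagens did not move as one. Col18a1, a multiplexin of vessel and myocyte basement membranes whose end fragment is endostatin, was at 13439, 14067 and 16289 in GFP and at 12855, 11732 and 13662 in Tbx18, with overlapping groups (log2 fold change -0.19 with SE 0.10, limma adjusted p = 0.150). Its sign turned after quantile normalization (0.11) and with equal recovered reads (0.07). Col15a1, the other multiplexin, which links basement membranes of muscle and capillaries to the matrix beneath, was at 703, 726 and 713 in GFP and at 2105, 1619 and 2367 in Tbx18, a 2.84-fold rise (1.49, SE 0.13, adjusted p = 3.04e-05).

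Col7a1, the chain of the anchoring fibrils that tie epithelial basement membranes to the tissue beneath, had the largest fold change of the 23 tested collagen genes. It was at 94.7, 86.4 and 142 in GFP and at 1025, 909 and 1179.7 in Tbx18, so that the lowest Tbx18 library lay far above the highest GFP library. The rise was 9.65-fold (log2 fold change 3.28 with SE 0.19, limma adjusted p = 3.95e-06), and 81 of the 11230 tested genes, Col7a1 included, had a log2 fold change as high. Its ratio to Col1a1 was 5.25-fold higher in Tbx18, with no overlap (log2 difference 2.39, exact permutation p = 0.10, adjusted p = 0.233). The window before its start in RefSeq, chr8:118483114-118483363 (GRCr8, plus strand), is shown since this gene moved most; capitals mark its 1 GGGCGG match.
Col7a1: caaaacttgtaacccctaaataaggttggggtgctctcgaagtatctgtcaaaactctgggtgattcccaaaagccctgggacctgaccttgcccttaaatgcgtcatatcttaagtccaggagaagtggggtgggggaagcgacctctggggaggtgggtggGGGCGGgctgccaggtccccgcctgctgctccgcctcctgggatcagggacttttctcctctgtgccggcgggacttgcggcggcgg

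Col17a1, the transmembrane collagen of hemidesmosomes, which sits at the same epithelial junction, was at 138, 100.03 and 92.1 in GFP and at 149, 158 and 138 in Tbx18. The groups overlapped and it was not called (log2 fold change 0.45 with SE 0.18, limma adjusted p = 0.0683), though it was with upper-quartile scaling (adjusted p = 0.0410), with equal recovered reads (0.0120) and without GFP replicate 1 (0.00855). In the same libraries the epithelial keratin Krt8, 1 of the 7 epicardial and mesothelial markers called higher, went from 223 ± 57.2 to 2662 ± 353; the part of such cells in the Col7a1 result was not tested.

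**Figure D4:**
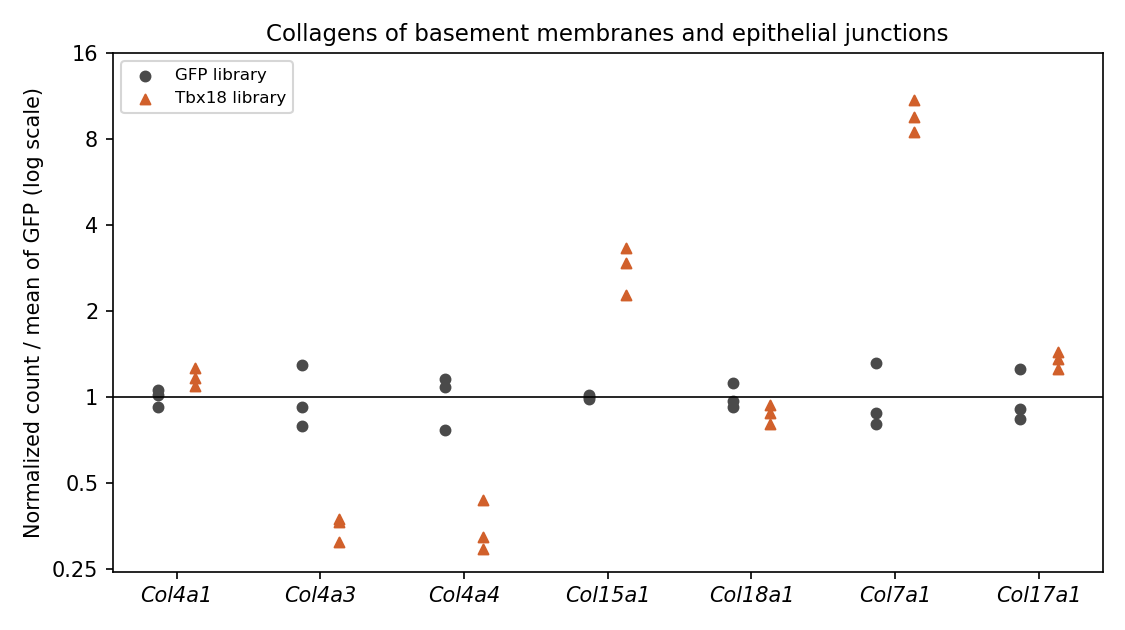
Normalized count of 7 basement membrane and epithelial junction collagens in each library, divided by the gene's GFP mean (log scale), with GFP libraries as circles and Tbx18 libraries as triangles. Triangles for Col7a1 and Col15a1 lie above all circles, those for Col4a3 and Col4a4 below all circles, and those for Col18a1 and Col17a1 among them.

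Across the 21 collagen genes with a RefSeq promoter entry, the 250 bases before the start were searched on both strands. Each collagen gene was counted by its first listed window. The shares over all windows were not limited to 1 window per gene or to the genes measured here, so the sets are not alike. Col14a1, Col1a1, Col2a1, Col3a1 and Col6a2 were not matched. GGGCGG was found in 12 of 21 windows, or 57.1%, against 30.5% of all 33469 windows, and among them were Col4a1, Col4a3, Col5a1, Col7a1 and Col11a1. CCAAT was found in 6 of 21, against 34.0%, and TATAAA in 3 of 21, against 12.9%. Of letters known from T-box sites, AGGTGTGA was found in 0 of 21, against 0.959% of all windows, and GGTGTG, which it contains, in 4 of 21, against 15.4%: Col4a4, Col9a2, Col13a1 and Col15a1. A match of letters is a description and not a binding site.

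The fibril-surface and beaded filament collagens were higher. Col6a2, a chain of type VI collagen, was at 15612, 11330 and 11778 in GFP and at 24905, 24236 and 28279 in Tbx18, a 2.00-fold rise with no overlap (log2 fold change 1.01 with SE 0.13, limma adjusted p = 0.000251). Col14a1, a FACIT of mature fibrils, was at 1848, 1649.9 and 1013 in GFP and at 3847, 2736 and 3752 in Tbx18, a 2.29-fold rise (1.23, adjusted p = 0.00126). Col16a1, another FACIT, was at 1968, 1849 and 1579 in GFP and at 3697, 3621 and 4435 in Tbx18, a 2.18-fold rise (1.12, adjusted p = 5.90e-05). For both FACIT genes the groups did not overlap.

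Col9a2, a cartilage FACIT chain, was nearest to the threshold among the called genes. It was at 10.6, 23.5 and 20.7 in GFP and at 42.3, 34.8 and 36.0 in Tbx18, with no overlap (log2 fold change 1.07 with SE 0.33, limma adjusted p = 0.0228). The call was lost after quantile normalization (adjusted p = 0.242) and without any 1 of the Tbx18 libraries (0.0544 to 0.0861). Col8a1, a short-chain collagen of vessel walls and remodelling heart, was at 1182, 902 and 862 in GFP and at 2518, 2222 and 2744 in Tbx18, a 2.54-fold rise with no overlap (1.35, adjusted p = 5.21e-05). Col13a1, a transmembrane collagen of cell adhesions and the neuromuscular junction, was at 22.2 to 48.3 in GFP and at 36.9 to 50.03 in Tbx18 and was not called (0.41, SE 0.30, adjusted p = 0.287). The 3 genes below the minimum mean were Col9a1 with 1 read in each GFP library and 3 to 7 in the Tbx18 libraries, Col23a1 with 3 to 5 and 8 to 17 reads, and Col6a4 with at most 1 and at most 4 reads.

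Genes that make, bind or break down collagen, or inhibit its breakdown, mostly rose. Of 69 listed partner genes, 61 matched a row and 56 were tested. Of these 56, 34 rose, 7 fell and the other 15 were not called, with a median log2 fold change of 0.57. Among all genes tested, 46.0% were called, 22.5% higher and 23.5% lower. These shares are also the background for the counts of each list below. Of the 61, 6 are also among the fibroblast markers (Dcn, Ddr2, Fap, Fn1, Lum and Postn), and the part of stromal cells was not tested for these genes either.

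The enzymes that modify the chains inside the cell moved both ways, with 6 of 12 higher and 3 lower. P4ha1, the most familiar catalytic subunit of prolyl 4-hydroxylase, which stabilises the helix, was at 15391, 16526 and 13035 in GFP and at 8778, 10157 and 11346 in Tbx18, with no overlap. It fell by 0.57 on the log2 scale (limma adjusted p = 0.00400), a call lost after quantile normalization (adjusted p = 0.0847). P4ha3, another such subunit, rose 2.14-fold, from 399.9 ± 58.2 to 857 ± 85.2 (limma adjusted p = 0.000141). P4ha2, also such a subunit, fell by 0.58 on the log2 scale (limma adjusted p = 0.00146). The prolyl 3-hydroxylase family genes Lepre1 and Leprel2 rose 1.56-fold and 1.76-fold, while Leprel1 of the same family fell by 0.54 on the log2 scale (limma adjusted p = 0.00632), a call lost with equal recovered reads (0.120). P4ha2 and Leprel1 were named after their values were seen. Plod2, the lysyl hydroxylase that prepares telopeptides for cross-links, rose 1.31-fold (0.39, adjusted p = 0.00430).

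Of 10 tested folding and secretion genes, 5 rose and 2 fell. The genes called lower, named after their values were seen, were Hspa5 and Tmem38b (limma adjusted p = 0.0384 and 0.0376). Their calls were kept in 8 and 10 of 18 alternatives, and the sign of Hspa5 turned after quantile normalization. Serpinh1, the collagen-specific chaperone HSP47, was at 27214, 32564 and 25659 in GFP and at 39871, 38216 and 45094 in Tbx18, a 1.44-fold rise with no overlap (log2 fold change 0.53, limma adjusted p = 0.00544). Creb3l1, a membrane-bound transcription factor that drives collagen production and secretion, rose 2.39-fold from 1337 ± 230.2 to 3192 ± 243 (1.27, adjusted p = 5.49e-05). The prolyl isomerase genes Fkbp7 and Fkbp10 rose 1.90-fold and 1.63-fold.

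Outside the cell, 3 of 6 tested genes of propeptide removal and 3 of 5 cross-linking genes rose and 0 of either fell. For propeptide removal, the share called in either direction was near the 46.0% of all genes tested. Among all genes tested, 22.5% were called higher. Bmp1, the protease that cuts the C-propeptide, rose 1.65-fold, Pcolce, its enhancer, 1.91-fold from 9256 ± 669.5 to 17640.5 ± 166, and Adamts2, which cuts the N-propeptide, 1.54-fold. Lox, the best known lysyl oxidase, was at 4346, 3350.5 and 3996 in GFP and at 3705, 4036 and 4679 in Tbx18. These ranges overlapped and it was not called (log2 fold change 0.09, limma adjusted p = 0.569); its sign turned without GFP replicate 2 (-0.02) and without Tbx18 replicate 3 (-0.003), and it was called higher with equal recovered reads (0.35, adjusted p = 0.0426). The related oxidase genes Loxl1, Loxl3 and Loxl4 rose 1.89-fold, 1.44-fold and 1.63-fold.

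All 8 tested genes of fibril-associated proteins rose. The Fn1 call was lost without GFP replicate 2, GFP replicate 3 or Tbx18 replicate 3 (limma adjusted p up to 0.0921), and that of Dcn, decorin, without Tbx18 replicate 3 (0.0670). Fmod, fibromodulin, a small proteoglycan that binds type I fibrils, was at 86.2, 98.8 and 108 in GFP and at 398, 323 and 399 in Tbx18, a 3.82-fold rise (log2 fold change 1.92, limma adjusted p = 1.59e-05). Postn and Lum, the fibril-binding proteins periostin and lumican, rose 2.52-fold and 2.25-fold.

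Receptors differed by member, with 4 of 7 called higher and 2 lower, or 3 of 6 and 2 without Itga10. Itga10, the alpha10 integrin subunit, which pairs with beta1 and binds collagen, most often described on cartilage cells, had 2, 1 and 2 reads in the GFP libraries and 236, 149 and 201 in the Tbx18 libraries, or 1.89 ± 0.57 and 182 ± 32.7 normalized counts (log2 fold change 5.99). It passed the minimum mean only through Tbx18, so no p is given, and with so few GFP reads the size of the change depends on the 1 added before taking logs. Without it 33 of 55 partner genes were called higher. Itga11, the alpha11 subunit of fibroblast collagen receptors, was at 296, 186 and 190 in GFP and at 968, 707 and 1103 in Tbx18, a 4.13-fold rise (2.05, adjusted p = 6.71e-05). Mrc2, an endocytic collagen receptor, rose 2.00-fold and Ddr2, the discoidin domain receptor of fibrillar collagen on fibroblasts, 1.50-fold (0.60, adjusted p = 0.00218). The members called lower were Itgb1 and Itga1, named after their values were seen: Itgb1, the beta1 subunit with which all these alpha subunits pair, went from 74764 ± 573 to 52556 ± 1401 and Itga1 from 1227 ± 229.9 to 908 ± 156. The Itgb1 call was lost after quantile normalization (adjusted p = 0.844), and the Itga1 call (limma adjusted p = 0.0440) was kept in 9 of 18 alternatives.

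The collagen breakdown list held proteases and also the protease inhibitors Timp1, Timp2 and Timp3, named after their values were seen. Of its 8 tested genes, 5 rose and 0 fell. Among those that rose was the inhibitor Timp2, 1.74-fold (limma adjusted p = 0.000476), while Timp1 and Timp3 were not called. Mmp14, a membrane-bound collagenase, was at 2466, 2060 and 2225 in GFP and at 6863, 6229 and 7406 in Tbx18, a 3.04-fold rise (log2 fold change 1.60, limma adjusted p = 6.17e-06). Mmp2, the gelatinase that Mmp14 activates, rose 1.99-fold, and Fap, a fibroblast surface protease, 1.98-fold. The interstitial collagenase genes Mmp8 and Mmp13 were at 0 to 1 reads per library and were not tested.

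**Figure D5:**
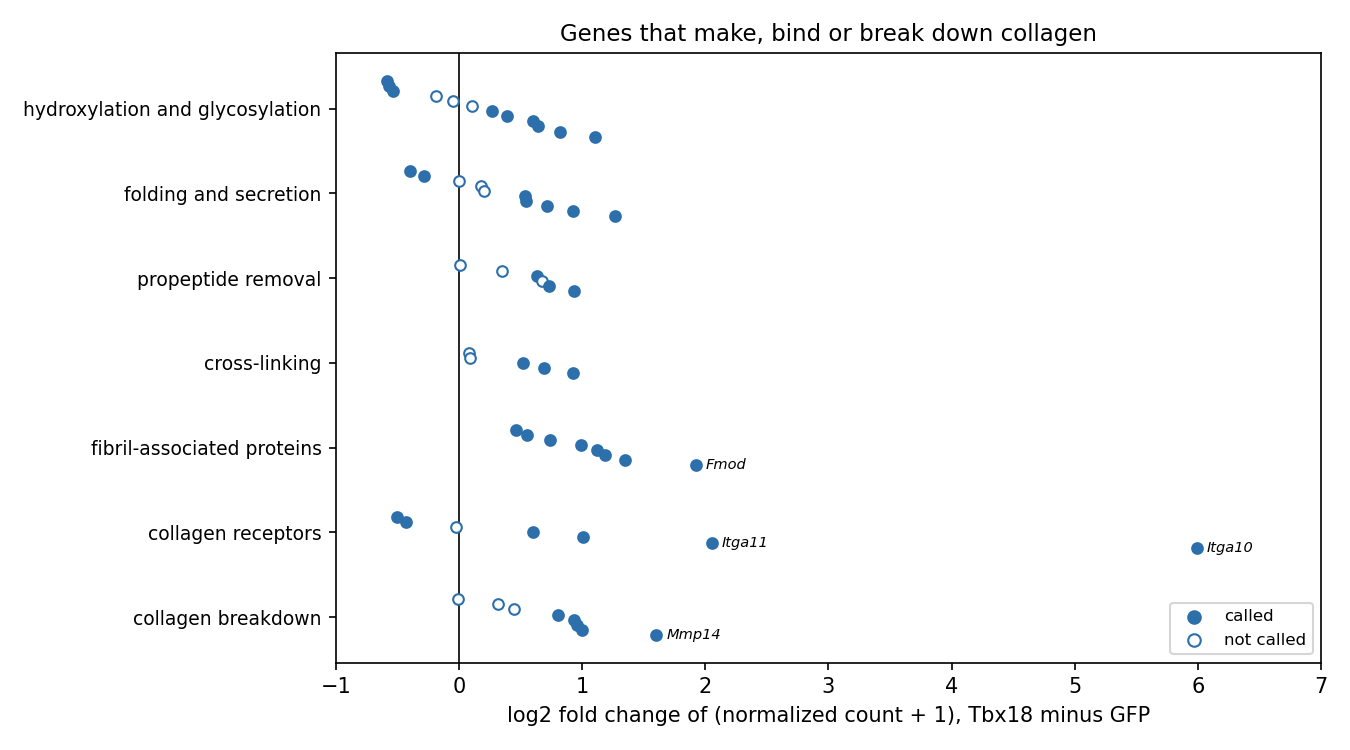
Log2 fold change (Tbx18 minus GFP) of the 56 tested genes that modify, fold, trim, cross-link, bind or break down collagen or inhibit its breakdown. Each list has 1 row of points, and filled points are called. All 8 points of the fibril-associated list are above 0, and Itga10 stands apart at 5.99. The filled point of Itga10 is a description, since this gene passed the minimum mean only through Tbx18.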

How the data were processed

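The table deposited by the authors holds signal values named in its header as DESeq2-normalized counts, per the file headers: gene read counts divided by 1 size factor per library. Dividing each column by its lowest value above 0 gave whole numbers, to within 0.01, for 100% of values; these recovered reads came to 17074483 to 19800300 per library. The submitters' processing notes list DESeq2 1.10.1, HTSeq, STAR 2.4.0g1 and bcl2fastq 2.17.1.14, with no roles. Genome build, annotation and strand setting: not given in the sources used here. Reads of overlapping genes or close paralogs are therefore less certain. Libraries were made from 100 ng of RNA by a strand-keeping mRNA kit, with paired reads of 101 bp, per the labels' protocols.

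In R 4.3.3, limma 3.58.1 was run with an intensity trend on log2(normalized count + 1). It covered 11230 genes, those whose mean reached 10, with Benjamini-Hochberg adjustment over all of them and a threshold of 0.05; fold changes on this scale understate the change of low genes. The test was tried on simulated counts with few changed genes and 1 fixed dispersion. These settings differ from the data, so the trial does not show how the test performs here. Folds in the text are ratios of group means. Totals, shares and ratios used exact two-sided permutation tests over libraries. The collagen genes and all lists were chosen with earlier results of these data known. Named were all tested collagen genes, the 3 called partner genes with the largest change per list, and Serpinh1, P4ha1, Plod2, Bmp1, Lox and Ddr2 whatever their result. Marker lists covered heart muscle, fibroblasts, smooth muscle and pericytes, endothelium, epicardium and mesothelium, macrophages and leukocytes, and Schwann and neural cells. Alternatives were other pseudocounts, filters, scalings and limma settings, count models on the recovered reads (DESeq2 1.42.0, edgeR 4.0.16), leaving out each library, and a replicate block. Promoter sequences are from RefSeq (GRCr8), used for no count.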

Additional observations from a re-analysis of the deposited data

How the results depend on the processing

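Over 18 alternatives, 13 to 18 collagen genes were called higher and 2 lower, against 16 and 2; 13 were higher with a minimum mean of 50, which tested 18 of them, and 18 with equal recovered reads, where the median of all genes moved from 0.005 to 0.27 and that of the collagen genes from 1.07 to 1.32. Among all genes that scaling gave 4770 higher and 1351 lower, against 2525 and 2639, and upper-quartile scaling 3054 and 2209; edgeR on recovered reads gave 2615 and 2591, and DESeq2 2437 and 2659. The collagen total kept its direction, 1.43-fold to 2.69-fold higher over its alternatives and 1.75-fold to 1.93-fold with 1 library left out, as did the 5 class shares. With 1 library left out, the log2 difference in the ratio of Col1a2 to Col1a1 ran from -0.97 to 0.56, of Col5a1 to Col1a1 from -0.0553 to 0.0861 and of Col4a4 to Col4a3 from -0.16 to 0.09, each changing sign (reversed without GFP replicate 3 at 0.088, without Tbx18 replicate 1 at 0.076 and without Tbx18 replicate 2 at 0.016 for the last). Of single genes, Col13a1 turned to -0.0825 and Col18a1 to 0.11 after quantile normalization, Col18a1 to 0.0709 with equal recovered reads, Col1a2 to -0.0789 without GFP replicate 3, and Lox to -0.0162 without GFP replicate 2 and -0.003 without Tbx18 replicate 3; with 1 library left out Col1a2 ran up to 1.20 and Lox up to 0.171. Partner genes called lower numbered 4 with upper-quartile scaling, 3 after quantile normalization, 3 with equal recovered reads and 4 to 6 with 1 library left out, against 7; the cause was not tested.

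Same-numbered libraries deviated together with correlations of -0.005, 0.15 and 0.02, and differently numbered ones with -0.14 to 0.11. Such values from 3 libraries per group show no clear pairing by replicate number and cannot exclude it. With the replicate block 16 collagen genes were higher and 2 lower. The exact sign-flip test of the total gave p = 0.25, the smallest 3 pairs can give. Counts per residue, and ratios with Col4a2, Col6a1 and Col6a3, were not run. Low counts limit Col1a2, Col2a1, Col11a2 and Col9a2.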
